A study of Mus musculus with 53 samples.

Results

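Homeobox genes encode transcription factors, and those described here are 4 HOX genes (Hoxa7, Hoxa9, Hoxa13 and Hoxd13), their cofactors Meis1 and Pbx3, and the homeobox genes Dlx1 and Tlx1. They were measured in mouse T-cell lymphomas of 15 genetic backgrounds. These 8 genes were chosen by their levels in these same tumours, so their differences between backgrounds are descriptions and carry no p-value. Where members are counted among the genes called by the fit of all genes, the count supports nothing, since the same contrasts chose them. Every probe set that the array annotation gives to 1 of the 8 genes was taken, which made 9 of the 22690 probe sets and 8 of the 12394 named genes, Hoxa9 having 2 probe sets.

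A homeodomain is a DNA-binding fold, and the HOX genes that carry it lie in clusters A to D and set position along the body axis of the embryo. In blood formation HOXA proteins act in stem and progenitor cells, bind DNA together with the cofactors PBX and MEIS, and are normally shut down as cells mature. TLX1 is a homeobox gene that normally acts in the forming spleen and is switched on by translocation in part of human T-cell leukaemias, and NUP98-HOXD13 is a leukaemia fusion that joins a nuclear pore protein to the HOXD13 homeodomain.

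The 53 arrays, each of 1 tumour sample, are labelled as T-cell lymphoblasts of C57BL/6 background with no treatment. The groups set apart are NUP98-HOXD13 transgenic tumours (3 arrays), TLX1 transgenic tumours (6 arrays) and crossed tumours, which carry the TLX1 transgene in animals heterozygous for RUNX, named RUNX1 in their titles (6 arrays). The other 12 backgrounds, called the rest (38 arrays), are Cdkn2a knockout insertional (9 arrays), beta-catenin, LMO1 and ThPOK transgenic, Olig-LMO1 and Tal1-LMO2 double transgenic, Ikaros plastic and p53 knockout (3 arrays each), and E2A knockout, rag E2A knockout, Pokemon transgenic and Tal1 transgenic (2 arrays each). The labels give TLX1 status as positive for the TLX1 transgenic tumours and as negative for all others, the crossed tumours included, although their genotype label names the TLX1 transgene. The titles of the Olig-LMO1 tumours name olig2 and their genotype label names olig1. The labels do not say that samples of a background came from separate animals, so spreads and p-values measure only the variation between these samples. The promoters that drive the transgenes, and the species of the transgene sequences, are not given in the sources used here.

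All levels are log2 intensities, differences are differences of log2 intensity, and errors of levels are SDs over arrays. An array's own median over all probe sets served as the mark of brightness, and array medians lay between 456 and 482 intensity units in NUP98-HOXD13, 481 and 536 in TLX1, 377 and 403 in crossed and 441 and 590 in the rest. The arrays were clustered by the bacterial control probe sets, which read RNA added in the laboratory. Cut at 4 clusters, a number chosen here, they fell into sets of 38, 8, 6 and 1. The set of 8 holds the 6 TLX1 arrays and p53 knockout replicates 1 and 2, and the set of 6 holds the crossed arrays alone, so the crossed genotype and its array set cannot be told apart. The actin 3′ over 5′ log2 ratio, a sign of RNA or labelling quality, was 0.16 to 0.27 in NUP98-HOXD13, 0.79 to 2.17 in TLX1, 0.57 to 0.88 in crossed and 0.04 to 1.53 in the rest. Of 12 measured T-cell identity genes, 10 to 11 were above the array median in NUP98-HOXD13, 11 to 12 in TLX1, 9 to 11 in crossed and 5 to 12 in the rest, the 5 being p53 knockout replicate 2. That array also had the highest summed intensity of 12 stromal, endothelial and epithelial genes, at 58605, against 13419 and 15205 in the other p53 knockout arrays. The B-cell genes Pax5 and Vpreb1 were below the array median on every array.

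Promoter sequence is printed for the members bright enough for the fit described below, and for Tlx1, the gene of the transgene in TLX1 and crossed tumours. These are the 250 bases before the transcription start, printed 5′ to 3′ on the gene's own strand, from RefSeq with the mouse build GRCm38.p6, which held 7 of the 8 members. Pbx3 was the member without an entry. Hoxa7 lies at chr6:52218574-52218823 (minus strand), Hoxa13 at chr6:52260881-52261130 (minus strand), Dlx1 at chr2:71529195-71529444 (plus strand) and Tlx1 at chr19:45150465-45150714 (plus strand). Capitals mark the MEIS core TGACAG on either strand, which occurs once here, as CTGTCA in Tlx1.
Hoxa7: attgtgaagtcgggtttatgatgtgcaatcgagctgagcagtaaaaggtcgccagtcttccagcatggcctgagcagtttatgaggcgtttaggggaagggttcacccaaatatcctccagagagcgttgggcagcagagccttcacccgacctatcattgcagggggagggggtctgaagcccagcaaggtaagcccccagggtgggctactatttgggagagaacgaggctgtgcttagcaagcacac
Hoxa13: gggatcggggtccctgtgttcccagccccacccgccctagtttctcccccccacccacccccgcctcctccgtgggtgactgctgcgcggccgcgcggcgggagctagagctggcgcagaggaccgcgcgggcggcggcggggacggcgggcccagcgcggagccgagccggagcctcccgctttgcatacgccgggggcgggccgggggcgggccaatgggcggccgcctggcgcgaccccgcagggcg
Dlx1: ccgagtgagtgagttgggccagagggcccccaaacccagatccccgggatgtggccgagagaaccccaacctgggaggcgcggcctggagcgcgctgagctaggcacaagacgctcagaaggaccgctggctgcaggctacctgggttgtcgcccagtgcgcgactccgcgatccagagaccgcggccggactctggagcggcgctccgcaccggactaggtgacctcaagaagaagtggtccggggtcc
Tlx1: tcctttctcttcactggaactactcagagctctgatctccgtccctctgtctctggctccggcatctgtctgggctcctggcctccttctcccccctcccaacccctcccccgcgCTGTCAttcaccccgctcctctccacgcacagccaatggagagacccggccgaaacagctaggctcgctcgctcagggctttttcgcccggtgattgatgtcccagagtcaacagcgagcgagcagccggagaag
The homeodomain core TAATTA, the PBX-HOX composite TGATTTAT and the composite TGATTGAC were searched on both strands and matched none of the 7 member windows. Among 27025 promoter windows of the same length, TGACAG occurred in 15.97%, TAATTA in 4.903%, TGATTTAT in 0.9177% and TGATTGAC in 0.7068%. The Hoxa13 window held 35 CpG dinucleotides and the Dlx1 window 22, against a median of 6 over all windows. Hoxa7, with 7 CpG, and Hoxa9, with 3, were close to that median. A match or its absence describes letters in these windows and says nothing of binding.

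The members differed widely in brightness, as the plot of all members by array shows. Hoxa7 was above the array median on 31 of 53 arrays, Pbx3 and Dlx1 on 18 each and Hoxa13 on 8. Each Hoxa9 probe set, Hoxd13 and Meis1 were above it on 1 array, and Tlx1 on 0. Hoxa7, Hoxa13, Pbx3 and Dlx1 passed the brightness filter, 3 or more arrays above their median, and entered the fit across 9157 genes. A probe set below the array median may hold little signal from its gene, so small differences of Hoxa9, Hoxd13, Meis1 and Tlx1 carry little weight.

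**Figure D1:**
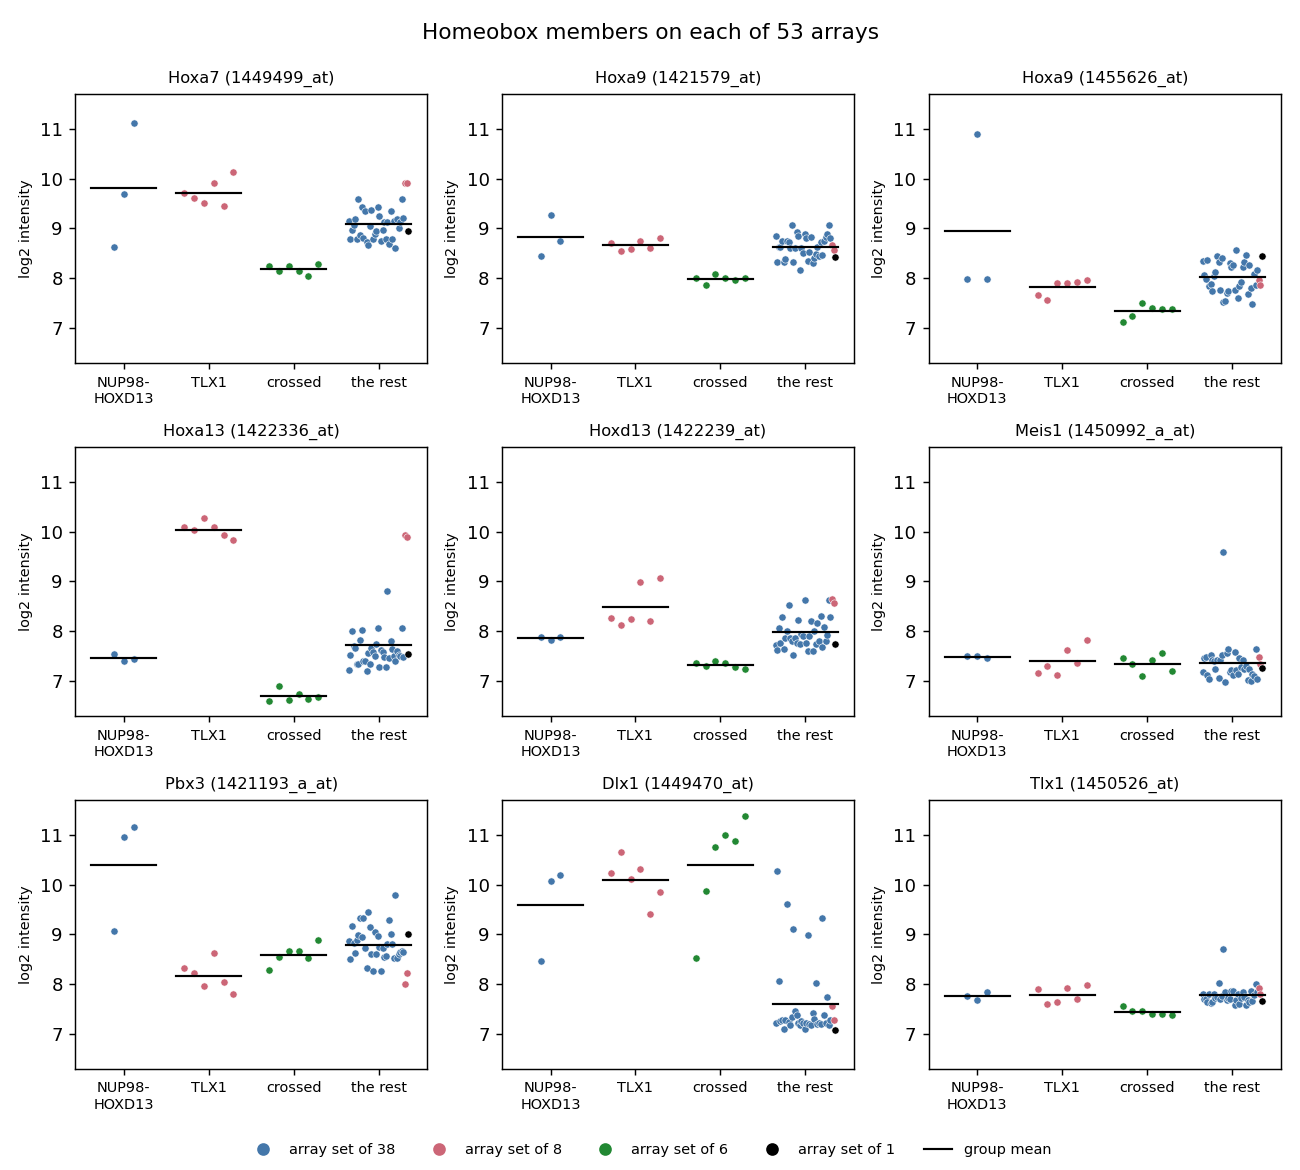
Log2 intensity of each member probe set on every array, with a panel for each probe set and, left to right, NUP98-HOXD13, TLX1, crossed and the rest; points are arrays, coloured by array set, and bars are group means. Dlx1 is high in all 3 groups on the left and Hoxa13 in TLX1, where the highest value is 10.28, while the crossed arrays lie low for Hoxa7, Hoxa9, Hoxa13, Hoxd13 and Tlx1.

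In NUP98-HOXD13 tumours the HOX gene of the fusion, Hoxd13, did not stand out, while Hoxa7, Hoxa9, Pbx3 and Dlx1 were high on some of the 3 arrays. Hoxd13, a HOX gene of limb and urogenital patterning, had 7.88, 7.83 and 7.88 in NUP98-HOXD13, against 7.52 to 8.65 with a median of 7.88 in the rest. The 3 arrays lay inside the range of the rest, with a difference of -0.11 ± 0.18 (SE). Whether this probe set can read the transgene was not tested, so the value does not check the label.

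Hoxa7, an A-cluster gene that blood progenitors use, had 8.62, 9.70 and 11.12 in NUP98-HOXD13 replicates 1, 2 and 3, against 8.61 to 9.92 with a median of 9.05 in the rest. Replicate 3 was above every array of the rest, replicate 2 was below p53 knockout replicates 1 and 2 only, and replicate 1 was near the bottom of the range. The means were 9.81 ± 1.25 in NUP98-HOXD13 and 9.09 ± 0.33 in the rest, a difference of 0.72 ± 0.25 (SE), or 1.65-fold. It rested on replicate 3: the difference was 0.07 without it and 1.32 without replicate 1. The fit takes 1 spread for both groups, so the SE understates the spread within NUP98-HOXD13. The same holds for Hoxa9 and Pbx3 below.

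Hoxa9, an A-cluster gene often active in human and mouse leukaemia, stood out on 1 NUP98-HOXD13 array. Its probe set 1455626_at had 7.99, 10.89 and 7.98 in NUP98-HOXD13 replicates 1, 2 and 3, against 7.49 to 8.57 with a median of 8.01 in the rest. Replicates 1 and 3 sat at the middle of the rest and replicate 2 far above its highest array. The difference of 0.93 ± 0.28 (SE) became -0.04 without replicate 2. The other Hoxa9 probe set, 1421579_at, had 8.45, 9.26 and 8.75 in NUP98-HOXD13, against 8.17 to 9.06 with a median of 8.63 in the rest. Again only replicate 2 lay above the rest, and the difference was smaller, at 0.19 ± 0.14 (SE). Hoxa13, a posterior A-cluster gene, had 7.55, 7.40 and 7.44 in NUP98-HOXD13 and 7.19 to 9.93 in the rest, so it lay within their range.

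The neighbouring HOX genes of the same arrays show the same unevenness, as the plot of the HOX clusters by array shows. Of 27 measured HOX genes that are no members, 0 were above every array of the rest in replicate 1, 4 in replicate 2 (Hoxa5, Hoxa10, Hoxc4 and Hoxc6) and 7 in replicate 3 (Hoxa4, Hoxa5, Hoxc4, Hoxc5, Hoxc6, Hoxc8 and Hoxd8). Over all 12394 genes the shares above every array of the rest were 1.01% in replicate 1, 1.45% in replicate 2 and 1.02% in replicate 3. With the members Hoxa7 and Hoxa9, genes high in replicate 2 or 3 were 5 of 9 in cluster A, 0 of 9 in B, 4 of 6 in C and 1 of 7 in D. No share of all genes was taken for these 2 replicates joined, and Hoxa7 and Hoxa9 were chosen by their levels. Nothing is therefore read from these counts by cluster. Each gene was read by its brightest probe set. Another probe set of Hoxa3, not counted, had 7.22, 8.22 and 8.88 in NUP98-HOXD13 and at most 8.07 in the rest. Another of Hoxc6 had 6.90, 10.65 and 11.39 in NUP98-HOXD13 and at most 8.96 in the rest. Hoxa5, an A-cluster neighbour of Hoxa7, had 7.46, 9.34 and 9.49 in NUP98-HOXD13, and its highest value in the rest was 8.40. Hoxc4 had 7.80, 9.79 and 10.63 in NUP98-HOXD13 and at most 8.59 in the rest. Replicates 2 and 3 were thus high for both genes and replicate 1 was not.

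Hoxa5 and Hoxc4 were above the array median on too few arrays to enter the fit, and they were singled out after their values were seen. When every named gene was fitted, 3 genes (0.0242%) were higher in NUP98-HOXD13 at a limma adjusted p under 0.05, namely Hoxa5, Hoxc4 and Pbx3. Hoxa5 rose by 1.27 ± 0.19 (SE, limma adjusted p = 0.000669) and Hoxc4 by 1.41 ± 0.23 (SE, limma adjusted p = 0.00124). Their SDs over the 3 NUP98-HOXD13 arrays were 1.13 and 1.46, against 0.21 and 0.22 in the rest. The fit takes 1 spread for both groups, so these SEs and p-values understate the spread within NUP98-HOXD13. Hoxc8 showed replicate 3 alone, with 7.09, 7.37 and 10.37 in NUP98-HOXD13 and at most 7.49 in the rest. Hoxa10 showed replicate 2 alone, with 7.23, 9.19 and 7.42 in NUP98-HOXD13 and at most 8.10 in the rest. Replicate 2 also had a higher summed intensity of the 12 stromal, endothelial and epithelial genes, 21147, against 8913 in replicate 1 and 8436 in replicate 3. The part of that difference in the HOX values was not tested.

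**Figure D2:**
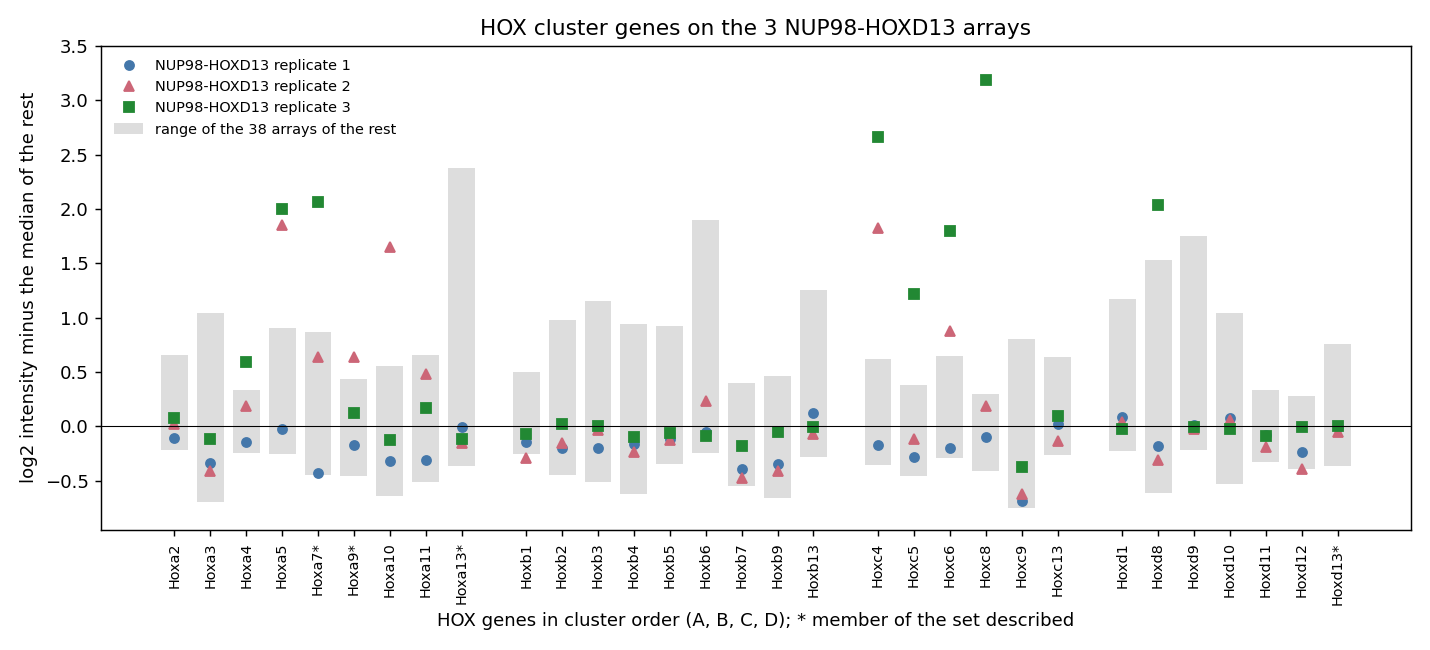
Each measured HOX gene's log2 intensity, at its brightest probe set, on NUP98-HOXD13 replicates 1, 2 and 3 minus the gene's median in the rest, ordered along clusters A to D, with grey bars for the range of the 38 arrays of the rest. No point of replicate 1 lies above a grey bar, and points of replicates 2 and 3 do so in clusters A, C and D.

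Pbx3 is a cofactor that binds DNA with HOX proteins and works with HOXA9 in human leukaemia cells. Of the members, it had the most NUP98-HOXD13 arrays above every array of the rest. It had 9.06, 10.96 and 11.16 in NUP98-HOXD13 replicates 1, 2 and 3, against 7.99 to 9.79 with a median of 8.74 in the rest. Replicates 2 and 3 were above every array of the rest and replicate 1 was inside the range. The means were 10.39 ± 1.16 in NUP98-HOXD13 and 8.79 ± 0.37 in the rest, a difference of 1.60 ± 0.26 (SE). It was between 1.22 and 2.27 when an array of the group was left out, and 1.57 within the set of 38 arrays. The SE understates the spread within NUP98-HOXD13, as for Hoxa7. As in all bulk samples, more cells with the transcript and more transcript in each cell cannot be told apart.

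Of the 4 members in the fit, 1 (Pbx3) was called higher in NUP98-HOXD13 and 0 lower, where 0.0109% of the 9157 genes were called higher and 0% lower. Pbx3 was the only gene called at all, and since the members were chosen from this contrast nothing is read from the count. At an unadjusted p under 0.05, 588 genes passed.

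Outside NUP98-HOXD13, Pbx3 was highest in tumours without E2A, a transcription factor of early lymphocytes. It had 9.28 and 9.79 in rag E2A knockout and 9.17 and 9.46 in E2A knockout tumours. TLX1 tumours were at the other end with 7.80 to 8.62 and a median of 8.14, next to p53 knockout tumours with 7.99, 8.21 and 8.80. The TLX1 difference from the rest was -0.63 ± 0.16 (SE), and 2 of the 6 TLX1 arrays were below every array of the rest. Within the array set that holds the 2 p53 knockout arrays it was 0.06. Crossed tumours had 8.28 to 8.88 with a median of 8.61, a difference of -0.19 ± 0.15 (SE) from the rest. In the order of the 15 backgrounds, 1 of 14 gaps between neighbours exceeded the sum of their SDs, so most neighbouring levels of Pbx3 did not differ beyond their spread.

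Meis1, the TALE cofactor that joins HOXA9 in leukaemia, did not follow Hoxa7, Hoxa9 or Pbx3. It had 7.51, 7.50 and 7.45 in NUP98-HOXD13, 7.12 to 7.82 in TLX1 and 7.11 to 7.55 in crossed, against 6.98 to 9.59 with a median of 7.27 in the rest. The high value belonged to 1 Ikaros plastic array, replicate 2, with 7.12 and 7.23 on its companions. Without that array the highest value of the rest was 7.64. Ikaros plastic replicate 2 also had a summed intensity of 36574 for the 12 stromal, endothelial and epithelial genes, against 19439 and 13969 in the other Ikaros plastic arrays, and 29592 for the T-cell genes, against 57977 and 64136. Their part in the Meis1 value was not tested. For Meis1, 0 of 14 gaps between neighbouring backgrounds exceeded the sum of the SDs.

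Hoxa13 was high in every TLX1 tumour, a level it shared with p53 knockout tumours. It had 9.84 to 10.28 in the 6 TLX1 arrays with a median of 10.06, against 7.19 to 9.93 with a median of 7.55 in the rest. All 6 TLX1 arrays were high, and of the rest p53 knockout replicates 1 and 2, with 9.93 and 9.90, fell among them. The third p53 knockout array had 8.81, and without the p53 knockout tumours the rest reached 8.07. The means were 10.04 ± 0.15 in TLX1 and 7.72 ± 0.60 in the rest, a difference of 2.32 ± 0.24 (SE). No fold is given for Hoxa13, Dlx1 or Pbx3, because most arrays outside the high groups lay below the array median, where the level may be background.

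The 2 high p53 knockout arrays are those of the TLX1 array set, and the third belongs to the set of 38. Within their own set the TLX1 arrays exceeded the p53 knockout arrays in Hoxa13 by 0.12, and exceeded replicate 1, the one with all 12 T-cell genes above the median, by 0.11. The order of the 15 backgrounds had 2 gaps beyond the sum of SDs, below p53 knockout (9.55 ± 0.64) and above crossed tumours (6.69 ± 0.11).

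Hoxa7 and Hoxd13 showed the same arrangement in TLX1 tumours at a smaller size. Hoxa7 had 9.45 to 10.13 in TLX1 with a median of 9.66, against 8.61 to 9.92 in the rest, and the difference was 0.63 ± 0.14 (SE). Within the array set it was -0.20. Hoxd13 had 8.12 to 9.08 in TLX1 with a median of 8.25, against 7.52 to 8.65 in the rest, and the difference was 0.50 ± 0.14 (SE), or -0.12 within the array set. The groups overlapped for both genes, with 1 TLX1 array above every array of the rest for Hoxa7 and 2 for Hoxd13. Hoxa9 did not stand out in TLX1, with differences of 0.04 ± 0.10 and -0.21 ± 0.13 (SE) for its 2 probe sets.

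In crossed tumours the HOX members lay at the bottom of the series. Hoxa7 had 8.04 to 8.29 in the 6 crossed arrays, and every one was below the lowest array of the rest. The same held on all 6 arrays for Hoxa9 1421579_at (7.87 to 8.09), Hoxa13 (6.60 to 6.90) and Hoxd13 (7.25 to 7.40), and on 5 of 6 for Hoxa9 1455626_at (7.13 to 7.50). The differences from the rest were -0.90 ± 0.13 for Hoxa7, -1.03 ± 0.24 for Hoxa13 and -0.66 ± 0.13 for Hoxd13 (SE). Crossed tumours and TLX1 tumours did not overlap for any HOX member, and for Hoxa13 the difference was -3.35 ± 0.08 (SE), with every crossed array below its array median. How many of all genes separated as fully was not counted, so nothing is read from these separations. Of the 9157 genes, 37% were called lower in crossed tumours than in the rest and 36.3% lower than in TLX1 tumours.

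The low HOX levels of crossed tumours came with arrays that were dimmer as a whole. Over the 9157 genes the median difference of crossed from the rest was -0.12 as deposited, 0.21 after each array was centred on its median and -0.02 after quantile normalization. Under quantile normalization and centring the Hoxa7 difference from the rest was -0.52 and -0.57, that of Hoxd13 -0.46 and -0.33, and that of Hoxa13 -1.10 and -0.70. Hoxa9 1421579_at gave -0.24 and -0.31, and 1455626_at gave -0.48 and -0.35. The HOX members kept their sign under both scalings, while Meis1 (-0.01 as deposited) and Pbx3 (-0.19 as deposited) did not.

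Dlx1, a Distal-less gene of forebrain interneurons, was the member that was high in all 3 groups set apart and low in most of the rest. NUP98-HOXD13 tumours had 8.47, 10.08 and 10.20, TLX1 tumours 9.42 to 10.65 with a median of 10.18, and crossed tumours 8.52 to 11.37 with a median of 10.81. The rest had 7.09 to 10.28 with a median of 7.27. Every array of the 3 groups was above the median of the rest, and 4 crossed and 2 TLX1 arrays were above its highest array.

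The differences of Dlx1 from the rest were 1.99 ± 0.46 in NUP98-HOXD13, 2.50 ± 0.32 in TLX1 and 2.80 ± 0.35 in crossed tumours, with SEs. The 3 comparisons share the 38 arrays of the rest. Unlike that of Hoxa13, the TLX1 difference of Dlx1 stayed within the array set, at 2.68 against both p53 knockout arrays and 2.54 against replicate 1. That of NUP98-HOXD13 was 1.96 within the set of 38 arrays. Crossed and TLX1 tumours overlapped, with a difference of 0.30 ± 0.42 (SE). The lowest crossed array, replicate 1 with 8.52, also had the highest summed intensity of 17 myeloid genes of any array, 106574, against 20606 to 29902 in the other crossed arrays, and 27579 for the T-cell genes, against 38053 to 48394. Their part in its Dlx1 level was not tested.

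Within the rest, high Dlx1 was found in a few backgrounds. Olig-LMO1 double transgenic tumours had 10.28, 9.10 and 9.0, against 7.09, 7.18 and 7.41 in tumours with the LMO1 transgene alone. Rag E2A knockout tumours had 8.01 and 9.33 and Tal1 transgenic tumours 9.60 and 7.22, so arrays of 1 background differed by more than 1 unit. E2A knockout tumours had 8.06 and 7.47. The 7 other backgrounds averaged between 7.16 and 7.38, and p53 knockout tumours, which shared the high Hoxa13, were among them with 7.38 ± 0.16. The 18 arrays with Dlx1 above the array median were 2 NUP98-HOXD13, 6 TLX1, 5 crossed, 3 Olig-LMO1, 1 rag E2A knockout and 1 Tal1 array. Dlx2, the neighbour of Dlx1 in the genome, had 7.71, 7.93 and 7.97 in NUP98-HOXD13, 7.91 ± 0.23 in TLX1 and 8.09 ± 0.68 in crossed tumours, against 7.79 ± 0.27 in the rest (SD), so the groups overlapped within their spread.

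**Figure D3:**
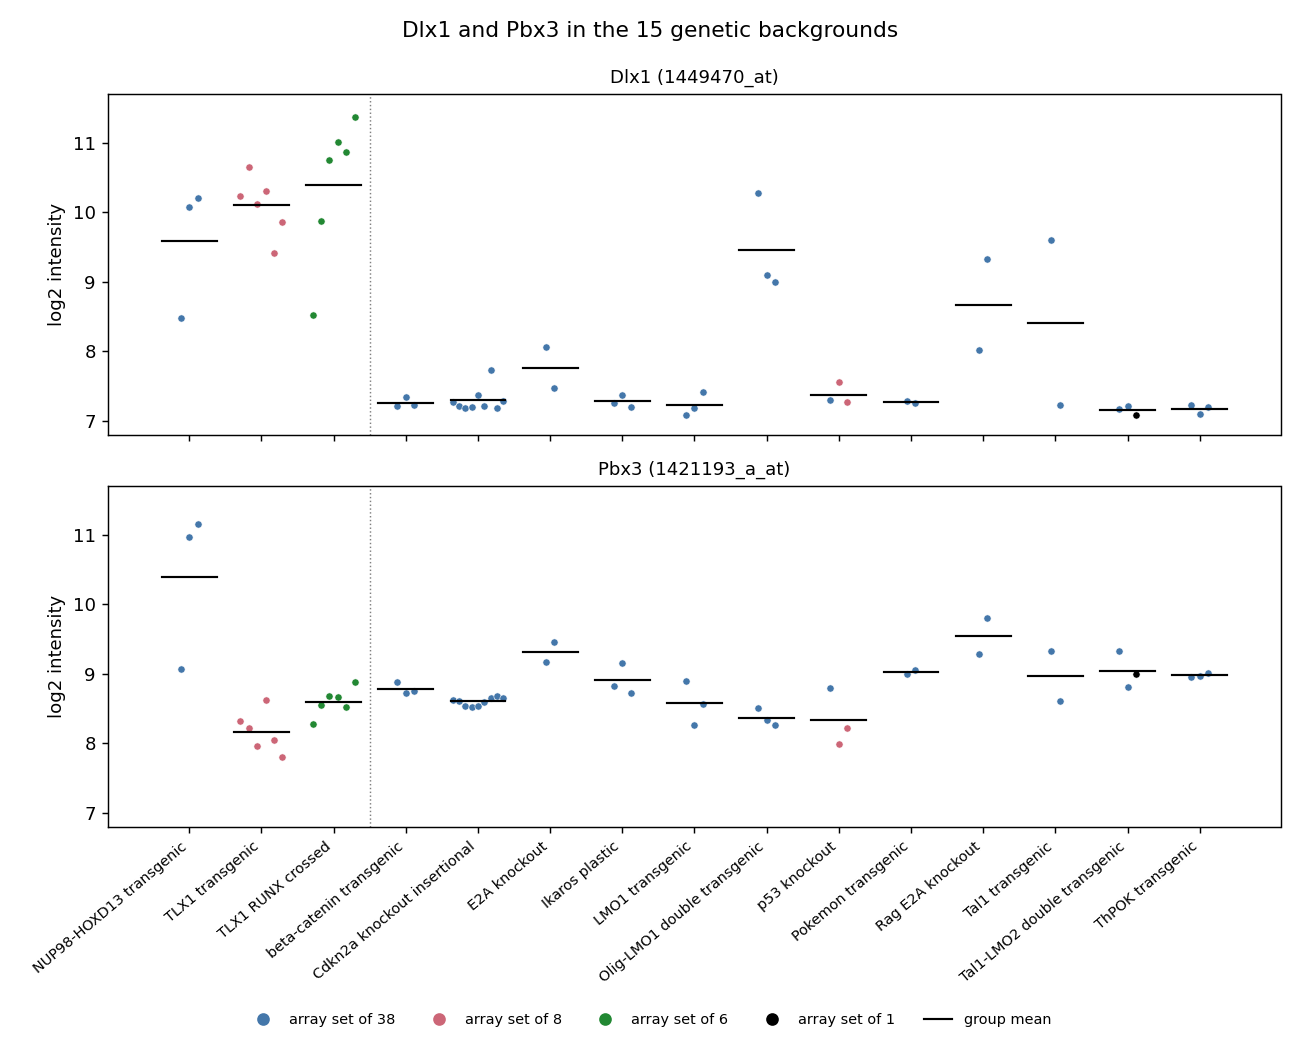
Log2 intensity of Dlx1 and Pbx3 on every array by genetic background, the 3 groups set apart being left of the dotted line and the 12 backgrounds of the rest right of it; points are arrays, coloured by array set, and bars the means. Crossed, TLX1 and NUP98-HOXD13 tumours have the highest Dlx1 means (10.40, 10.10 and 9.58), and NUP98-HOXD13, rag E2A knockout and E2A knockout tumours the highest Pbx3 means (10.39, 9.54 and 9.31).

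In the order of Dlx1 means, crossed tumours (10.40 ± 1.05) came before TLX1 (10.10 ± 0.42), NUP98-HOXD13 (9.58 ± 0.96) and Olig-LMO1 tumours (9.46 ± 0.71), then rag E2A knockout (8.67 ± 0.93) and Tal1 tumours (8.41 ± 1.68). No neighbours in that order differed by more than the sum of their SDs. For Hoxa7, whose means ran between 8.19 in crossed and 9.81 in NUP98-HOXD13 tumours, 5 of 14 gaps did, several of them between backgrounds with 2 or 3 close arrays.

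Tlx1 itself was not higher in the tumours named for it. Its mouse probe set had 7.59 to 7.99 in TLX1 tumours with a median of 7.80 and 7.38 to 7.55 in crossed tumours with a median of 7.44, against 7.58 to 8.70 with a median of 7.73 in the rest. It was below the array median on every array, and the TLX1 range lay inside that of the rest, with a difference of 0.02 ± 0.08 (SE). Whether this probe set can read the transgene was not tested, so its level does not check the TLX1 status labels. Crossed arrays were all below the rest as deposited, with a difference of -0.33 ± 0.08 (SE), which was -0.07 under quantile normalization and 0.01 under centring. The highest value of the rest was that of Ikaros plastic replicate 2, the array with the high Meis1.

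**Figure D4:**
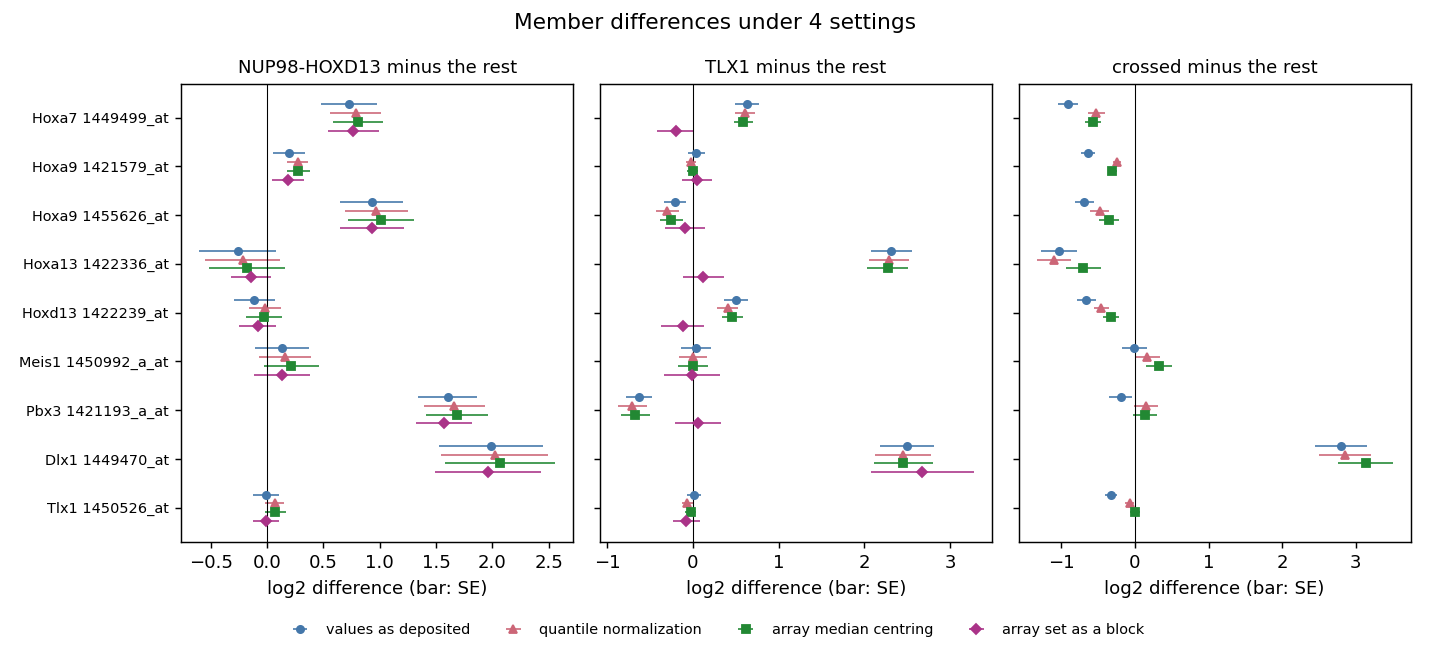
Difference of log2 intensity from the rest for each member probe set, with bars for SEs, in a panel each for NUP98-HOXD13, TLX1 and crossed tumours, as deposited, after quantile normalization, after centring and, where it could be fitted, with array set as a block. Dlx1 stays high in all 3 panels (1.99, 2.50 and 2.80 as deposited), while Hoxa13 in TLX1 is at 2.32 as deposited and 0.12 with array set as a block.

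Of the 4 members in the fit, 3 (Hoxa7, Hoxa13 and Dlx1) were called higher and 1 (Pbx3) lower in TLX1 tumours, where 18% of 9157 genes were called higher and 12.8% lower. Within the TLX1 array set the differences were -0.20 for Hoxa7, 0.12 for Hoxa13, 2.68 for Dlx1 and 0.06 for Pbx3. In crossed tumours against the rest, 1 (Dlx1) was called higher and 2 lower, where 18.5% of genes were higher and 37% lower. In crossed against TLX1 tumours, 1 (Pbx3) was called higher and 2 lower, where 17.9% of genes were higher and 36.3% lower. Since the members were chosen from these contrasts, nothing is read from the counts.

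The genes whose background means ran closest to each member's were found by the Pearson correlation over the 15 background means, which share array sets and the authors' normalization. For Hoxa7 they were Nova1, an RNA-binding splicing regulator (0.93), the C-cluster gene Hoxc6 (0.92) and Snx30, a sorting nexin (0.91). Over the 38 arrays of the largest set the correlations were 0.85, 0.88 and 0.38. For Hoxa13 the genes were Dll4, a Notch ligand, Onecut3, a homeobox gene, and Lrrc23, each at 0.99 over the means, and at 0.92, 0.86 and 0.76 over the largest set. The Hoxa13 means were high in TLX1 (10.04) and p53 knockout tumours (9.55) alone. In the largest set its highest array was p53 knockout replicate 3, with 8.81. Dlx1 was closest to Mx1, an interferon-induced gene (0.88 over the means, 0.67 over the largest set), Scarb2, a lysosomal membrane protein (0.84 and 0.55), and Exoc4, of the exocyst complex (0.81 and 0.52). Pbx3 had looser company in Poc5, a centriole protein (0.75 and 0.48), Gtf2h1, a subunit of the general factor TFIIH (0.74 and 0.21), and Extl2, a glycosyltransferase (0.73 and 0.47). All these genes were picked as the highest by the correlation over the means, and the arrays of the largest set also made those means. Nothing is therefore read from the size of the correlations.

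Other homeobox genes were tested in the fit across 9157 genes, 41 of the 99 that were measured having passed the brightness filter. In NUP98-HOXD13, limma called 0 of 41, with a median difference of -0.17 against -0.04 over all genes. At an unadjusted limma p under 0.05, 7 of the 41 passed, beside 588 of all 9157 genes. In TLX1 tumours 9 rose and 5 fell, with a median of 0.10 against 0.03, and 0 passed with array set as a block. The shares, 22.0% higher and 12.2% lower, were near the 18% and 12.8% of all genes called. Tlx2, a paralogue of Tlx1, rose by 1.52 ± 0.28 (SE, limma adjusted p = 5.17e-05), with 11.15 ± 0.68 in TLX1 and 9.63 ± 0.64 in the rest, yet within the array set its difference was -0.69. Among TALE cofactors Pbx4 rose by 0.67 ± 0.09 (SE, limma adjusted p = 1.27e-07) and Tgif1, a repressor of the same class, fell by 1.17 ± 0.17 (SE, limma adjusted p = 1.40e-06), and within the array set these were 0.22 and -0.82. The reference within the array set was p53 knockout replicates 1 and 2 alone. Replicate 2 had 5 of 12 T-cell genes above its array median, and no values against replicate 1 alone were taken for these genes.

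In crossed tumours 2 other homeobox genes rose and 31 fell against the rest, with a median of -0.74 against -0.12 over all genes. These were 4.88% higher and 75.6% lower, beside 18.5% and 37% of all genes. In the same comparison 5 of 12 T-cell genes fell and 1 rose, the falling share being near that of all genes. Early progenitor genes were mixed, 5 of 8 falling and 3 rising. Their summed intensity had a median of 6795 in crossed tumours and 5319 in the rest, with overlapping ranges. Of 6 B-cell genes 4 fell and 0 rose, as did 4 of 6 erythroid and megakaryocyte genes. Of 16 myeloid genes 5 rose and 1 fell. The part of these lists in the homeobox counts was not tested. The homeobox counts were 3 higher and 25 lower under quantile normalization, beside 1998 and 2561 of all 9157 genes. Under centring they were 4 and 24, beside 3646 and 2139. The 31 included all 6 other HOX genes and all 13 other NK-like and Distal-less genes tested, among them Hoxc9 with -1.27 ± 0.16 (SE, limma adjusted p = 1.20e-08) and Tlx2 with -1.95 ± 0.26 (SE, limma adjusted p = 2.32e-08). Hoxa3 fell by 1.43 ± 0.18 (SE, limma adjusted p = 1.03e-08) at its brightest probe set, while its other probe set gave a difference of 0.14. The cofactor Pbx2 rose by 0.53 ± 0.12 (SE, limma adjusted p = 0.000174). Against TLX1 tumours 2 homeobox genes (4.88%) rose and 29 (70.7%) fell, beside 17.9% and 36.3% of all genes. There 7 of 12 T-cell genes and 5 of 8 early progenitor genes fell, with 0 rising in either list. Tlx2 had a difference of -3.47 ± 0.25 (SE, limma adjusted p = 1.65e-07).

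Genes that regulate HOX chromatin and genes known to act with or under HOXA9 and MEIS1 made up the remaining lists. In NUP98-HOXD13, limma called 0 of 18 chromatin regulators and 0 of 13 HOXA9 and MEIS1 programme genes. At an unadjusted limma p under 0.05 the counts were 0 and 2, beside 588 of all 9157 genes. In TLX1 tumours 3 chromatin regulators (16.7%) rose and 1 (5.56%) fell, and 3 programme genes (23.1%) rose and 1 (7.69%) fell, beside 18% of all genes higher and 12.8% lower. Of the programme genes, the receptor gene Flt3 rose by 1.63 ± 0.27 (SE, limma adjusted p = 9.39e-06) and was at -0.52 within the array set, and the survival gene Bcl2 rose by 1.08 ± 0.18 (SE, limma adjusted p = 1.11e-05) and was at 0.73 there. Of 8 early progenitor genes, 5 rose and 0 fell in TLX1 tumours. That list shares Flt3, Kit, Cd34, Mef2c and Lmo2 with the programme genes, and Flt3 and Kit were among the programme genes that rose. Summed intensities were 6327 to 13425 in TLX1 and 3093 to 15398 in the rest. The 15398 belonged to p53 knockout replicate 2, and replicate 1 had 7456. The values within the array set rest on those 2 arrays, and none against replicate 1 alone was taken here. The part of the progenitor genes in these values was not tested. In crossed tumours against the rest 4 chromatin regulators (22.2%) rose and 7 (38.9%) fell, and 5 programme genes (38.5%) rose and 5 (38.5%) fell, beside 18.5% and 37% of all genes. Among the rising programme genes were Cdk6, a cell-cycle kinase gene, with 1.13 ± 0.17 (SE, limma adjusted p = 3.26e-07), and Id2 with 1.28 ± 0.42 (SE, limma adjusted p = 0.00896). Among the falling ones were Trib2 with -2.08 ± 0.43 (SE, limma adjusted p = 5.93e-05) and Flt3 with -1.21 ± 0.25 (SE, limma adjusted p = 6.42e-05). Against TLX1 tumours 5 chromatin regulators (27.8%) rose and 5 (27.8%) fell, and 4 programme genes (30.8%) rose and 4 (30.8%) fell, beside 17.9% and 36.3% of all genes.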

How the data were processed

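RNA of 53 tumour samples was hybridised to Affymetrix arrays as biotin-labelled cRNA, per the labels' protocols. The authors deposited a normalized, linear intensity for each of 22690 probe sets, and the sources used here do not name the normalization. The deposited intensities were turned to log2. Of the probe sets, 20393 have 1 gene symbol, 691 several and 1606 none in the array annotation, and 20364 were matched by Entrez identifier to RefSeq names.

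Each gene was read by the probe set of highest mean, and the 9157 genes that exceeded the median of 3 or more arrays were fitted with limma 3.58.1 in R 4.3.3 (lmFit and eBayes, a pair of groups at a time, Benjamini-Hochberg adjustment, threshold 0.05). Member differences and SEs come from a fit of all probe sets without the filter. The code was tested on simulated data. Array sets are clusters of the arrays by 27 bacterial control probe sets, with the number of clusters fixed at 4 and not estimated from the data. The number of arrays limits the precision.

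The members and lists were chosen with earlier results of these data known. The genes named are all 8 members, up to 3 called genes of largest difference each way per list and comparison, of which some are printed, and the 3 genes closest to each member of the fit by background means. Alternatives were the filter, probe set mean, scaling, a model of 15 background means, replicate block, array set block, and leaving out arrays or backgrounds. Same-numbered samples did not pair: of 216 pairs between backgrounds, 32 had deviations correlated over 0.1, with a median of -0.016. The 2 most alike arrays correlated at 0.988, so none was taken as a repeat.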

Additional observations from a re-analysis of the deposited data

Results flagged for a closer look

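Within the 9 Cdkn2a knockout insertional arrays, 4 member values stood apart from their group by Dixon's test of the gap over the range, out of 27 tests of a member in a group of 6 or 9 arrays. Chance flags about 1 in 20 such groups. Replicate 8 was the highest for Hoxa9 1421579_at, at 9.06, for Hoxa13, at 8.07, and for Meis1, at 7.64. That array also had the highest median log2 intensity of all arrays, 9.20. Replicate 7 was the highest for Dlx1, at 7.74, below the 8.47 of the lowest NUP98-HOXD13 array.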

How the results depend on the processing

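Of the member differences, 721 alternative values moved by less than 1 SD of the group's arrays, 62 moved by more and 8 changed sign from a difference larger than that SD. Smaller differences that crossed 0, such as Hoxa9 in NUP98-HOXD13 without replicate 2 and Meis1 and Pbx3 in crossed tumours under another scaling, are counted among the others. The 8 were TLX1 against the rest with array set as a block (Hoxa7 -0.20, Hoxd13 -0.12, Pbx3 0.057), the same with p53 knockout replicate 1 as the only array of the rest (Hoxa7 -0.20, Hoxd13 -0.16, Pbx3 0.17), and Tlx1 in crossed tumours under centring, 0.0059 against the rest and 0.031 against TLX1 tumours. The second of these, and leaving out Ikaros plastic or p53 knockout replicate 2, were chosen after seeing the data.

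For NUP98-HOXD13 against the rest, the 1 gene called became 3 with no filter, 0 with the stricter filter, 3 with the mean of probe sets, 2 under centring, 304 (70 higher, 234 lower) in the model of 15 background means, 2 with the replicate block, 2 with array set as a block, 2 without p53 knockout replicate 2, 1 to 3 without a background and 0 to 7 without an array (7 without replicate 1, 1 without replicate 2, 0 without replicate 3). Other homeobox genes called, 0 before, were 2, 1, 1 and 4 with no filter, the mean of probe sets, centring and the background means, and 0 to 1 without an array. For TLX1 against the rest the 2817 genes became 4414 with no filter, 1819 with the stricter filter, 4254 by background means, 774 (575 higher, 199 lower) with the replicate block and 97 (41 higher, 56 lower) with array set as a block, with 2058 to 2706 without an array and 2318 to 3556 without a background. The 14 other homeobox genes became 48 with no filter, 8 with the stricter filter, 8 with the replicate block and 0 with array set as a block, with 12 to 15 and 13 to 17 when arrays or backgrounds were left out. For crossed against the rest (33 other homeobox genes) they were 72 and 21 with no and the stricter filter, and 30 to 33 and 31 to 34 in leave-one-out, with 4711 to 4787 and 4755 to 5364 genes. For crossed against TLX1 the 4959 genes became 7478 with no filter, and the 31 other homeobox genes became 71 and 20 with no and the stricter filter, with 4623 to 5043 and 29 to 31 when arrays were left out. The cause was not tested, except that a filter changes how many genes are tested.

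Scaling moved the split of calls: 1692 higher and 3392 lower for crossed against the rest became 1998 and 2561 under quantile normalization and 3646 and 2139 under centring, and 1637 and 3322 for crossed against TLX1 became 2281 and 2474, and 3860 and 2050. The other homeobox genes stayed mostly lower, 5 higher and 23 lower for crossed against TLX1 under both. Replicate numbers did not pair the samples, with same-number correlations between -0.31 and 0.37. The replicate block leaves out the Cdkn2a knockout arrays. It gave 3564 genes for crossed against the rest and 4639 for crossed against TLX1.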
